A study of Mus musculus with 17 samples.

Results

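AMPA receptors are the glutamate-gated ion channels that carry most fast excitatory transmission between neurons of the cerebral cortex. The pore is an assembly of subunits encoded by Gria1, Gria2, Gria3 and Gria4, and auxiliary subunits bound to it set its traffic to the synapse and its gating. The genes followed here were these pore subunits, the transmembrane AMPA receptor regulatory proteins (TARPs) Cacng2, Cacng3 and Cacng8, and the cornichons Cnih2 and Cnih3. They were taken by gene symbol, and all 9 were present among the 36293 genes of the bulk files and the 37608 genes of the single-nucleus tables.

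The animals were C57BL/6 mice (C57BL/6J, all male, per the study's methods) that were either left unstressed or exposed to 12 days of chronic unpredictable stress (CUS), a schedule of several stressors a day that changed over time. Nuclear RNA of the medial prefrontal cortex (mPFC) was sequenced in bulk from 4 control and 5 CUS mice at postnatal day 90, and nuclei of the neocortex were profiled by sNucDrop-seq, a droplet method, in 4 control and 4 CUS mice at postnatal day 80. Control mice were handled daily and kept in another room than the CUS mice, so the room and the stress cannot be told apart. The labels place dissection a day after the last stressor for all samples, whereas the study's methods place that of the bulk mice a day after the last behavioral test. Each mouse was 1 sample. The nuclei were collected in batches that each held mice of both groups, and the study's own test for nuclei had a batch term. The batch of each mouse was not given in the sources used here, so no batch term was fitted, and the spread between mice in the nuclei includes any difference between batches. The part of the batch in the results in nuclei was not tested.

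Bulk libraries held 26188825 to 30525015 counted reads. After filtering, 26698 of 40000 barcodes remained as nuclei, with a median of 2010 unique molecular identifiers (UMIs), and any pair of mice shared 0 to 2 barcodes. They fell into 37 clusters, from which 26 classes of over 200 nuclei were made. The total of 17795 excitatory nuclei used below includes 3 clusters too small to be a class. The total of 2789 inhibitory nuclei holds the 4 classes named as interneurons (Inh) and leaves out unnamed clusters with Gad1 and Gad2, among them the C130073E24Rik/Rmst cluster of 879 nuclei, and striatal-like nuclei. A class is called after a cell type ("-like") where its markers led it, and otherwise after its leading genes. Cortical markers were present in every bulk mouse, with 146 to 219 CPM (counts per library scaled to the same total) of Slc17a7, the vesicular glutamate transporter of excitatory neurons. Some mice stood apart from the rest. Bulk control replicate 3 had a summed level of excitatory markers of 1933 CPM, against 1313 to 1471 CPM in the other controls, and leaving it out raised the genes called in bulk from 606 to 1508. Bulk control replicate 4 had the highest level of the striatal marker Drd2, at 19.0 CPM against 1.18 to 4.15 CPM in the other mice. Leaving it out gave 510 genes called and a log2 fold change of Gria1 of 0.37 (FDR 0.037, edgeR). In the nuclei, CUS replicate 1 had the highest share of astrocyte-like nuclei, 8.44% against 3.02 to 6.46%, and of Gria2 among the pore subunits (below). Leaving out CUS replicate 2 raised the genes called over all nuclei from 1 to 828. Results of the members that rest on these mice are given with and without them, and those of other genes with all mice unless stated.

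The site at which editing sets Gria2 apart from the other pore subunits lies in a short coding stretch. It is shown here because the mix of subunits is described below. At the Q/R site of the pore a glutamine codon of the Gria2 RNA is edited to an arginine codon, and receptors that contain edited Gria2 pass little calcium. The sequences below run 5′ to 3′ in the sense of the transcript, with the Q/R codon in capitals, from GENCODE M21 transcripts on GRCm38.
Gria1: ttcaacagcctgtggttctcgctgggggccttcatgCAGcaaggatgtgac
Gria2: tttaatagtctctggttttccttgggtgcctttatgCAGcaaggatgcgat
Gria3: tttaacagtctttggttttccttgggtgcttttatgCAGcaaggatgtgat
Gria4: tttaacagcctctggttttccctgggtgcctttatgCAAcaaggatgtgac
They lie in coding exons, at chr11:57243058-57243108 on the plus strand in exon 11 of 16 for Gria1, at chr3:80706899-80706949 on the minus strand in exon 11 of 16 for Gria2, at chrX:41610229-41610279 on the plus strand in exon 11 of 16 for Gria3, and at chr9:4464125-4464175 on the minus strand in exon 12 of 17 for Gria4. Over these 51 bases Gria2 and Gria3 were alike at 47 and Gria1 and Gria2 at 40. The unedited codon was CAG in Gria1, Gria2 and Gria3 and CAA in Gria4, so the codon alone does not set Gria2 apart. Counts per gene do not show how many transcripts were edited.

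Levels of different genes were compared per kb of gene, in control mPFC, where nuclear RNA holds unspliced as well as spliced transcripts. Per kb of gene span, Gria2 stood highest at 7.70 ± 0.464 CPM per kb (SD, n = 4), followed by Gria1 at 3.80 ± 0.440, Gria3 at 3.25 ± 0.350 and Gria4 at 2.20 ± 0.418. Gria1 and Gria3 did not differ beyond the sum of their spreads. Of the auxiliary subunits, Cnih2 had 2.43 ± 0.549, Cacng3 1.87 ± 0.375, Cacng8 1.71 ± 0.261, Cnih3 0.850 ± 0.193 and Cacng2 0.488 ± 0.181 CPM per kb of span. The order depended on the length used. Per kb of annotated exon, Gria1 led with 201 CPM per kb, ahead of Gria4 with 132 and Gria3 with 91.6, while Gria2 had 60.1. The sources used here do not say whether reads in introns were counted, so neither order is preferred.

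Stress was followed by a higher level of Gria1 in the mPFC, and of no other member, in the test over 18394 genes. Gria1, the subunit whose delivery to synapses accompanies several forms of plasticity, spans chr11:57011387-57330244 on mm10 (ENSMUSG00000020524). It measured 1074, 1227, 1401 and 1149 CPM in the control mice and 1514, 1700, 1486, 1571 and 1642 CPM in the CUS mice. Every CUS mouse lay above every control mouse, with control replicate 3 the closest. The means were 1213 ± 140 and 1583 ± 88.8 CPM (SD, n = 4 and 5), a log2 fold change of 0.38 with a standard error of 0.08 and an FDR of 0.024 in edgeR's quasi-likelihood test. Gria1 was thus 1 of 9 members called, beside 3.29% of all genes tested (1.16% higher in CUS), and 1 of 9 whose groups did not overlap, beside 8.76% of all genes. The call was lost when the replicate number was added as a block (FDR 0.058) and without control replicate 2, CUS replicate 4 or CUS replicate 5 (FDR 0.066, 0.069 and 0.071), with log2 fold changes of 0.37 to 0.39 in these 4 fits. It was kept without each of the other mice, with a log2 fold change of 0.45 (FDR 0.0027) without control replicate 3, and the FDR was 0.00072 in the likelihood ratio test and 0.00021 in DESeq2. In bulk tissue, more cells of a kind that holds Gria1 and more Gria1 RNA per cell cannot be told apart.

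**Figure D1:**
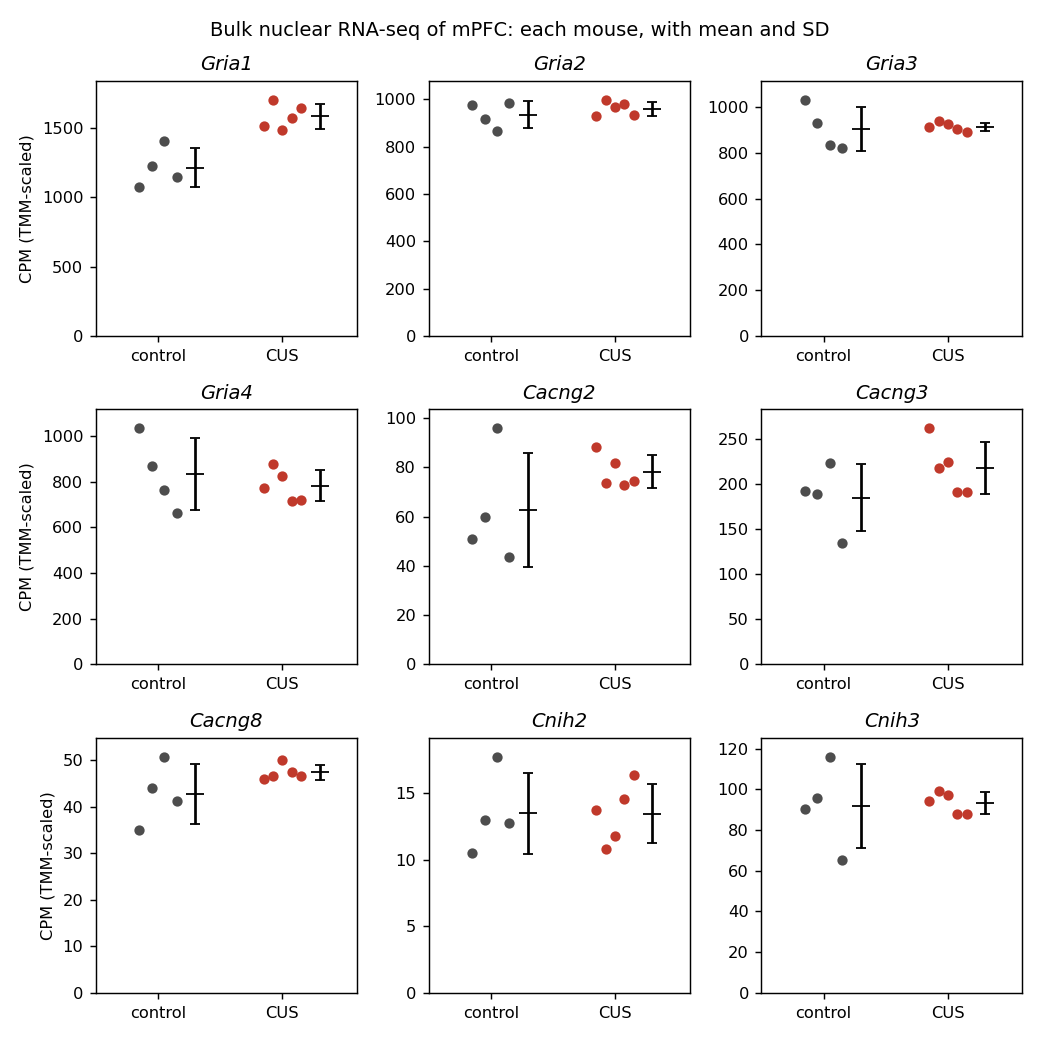
Level of each member in bulk nuclear RNA of mPFC, in TMM-scaled CPM, with 1 point per mouse (control grey, n = 4; CUS red, n = 5) and mean with SD beside them. In Gria1 alone the 5 CUS mice, at 1486 CPM or more, sit above the highest control mouse at 1401 CPM, and in Cacng2 control replicate 3 sits at 95.9 CPM, above every other mouse.

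Markers of some cell types moved with the groups too. The summed level of the 5 markers of Pvalb interneurons, nuclei of which were rich in Gria1 (below), ranged from 159 to 205 CPM in control and from 220 to 250 CPM in CUS mice. Of these markers Cemip, a hyaluronan-binding protein, rose (log2 fold change 0.56, FDR 0.012), and the other 4 had summed levels of 77.6 to 93.7 and 87.1 to 106 CPM, which overlapped. Of the 5 markers of Pvalb interneurons 2 had negative estimates. None of the 4 markers of Sst interneurons, whose nuclei held the most Gria1 (below), was called. The Sst markers summed to 174 to 217 CPM in control and 190 to 205 CPM in CUS mice. No marker of the excitatory layers, of Vip interneurons or of endothelial cells was called, and 3 of 4 layer 6 markers had negative estimates. The general inhibitory markers Gad1 and Gad2, which make GABA, were not called, and all 5 general inhibitory markers had negative estimates, with Gad1 at 54.3 to 96.5 CPM in control and 48.4 to 79.2 CPM in CUS mice. The 7 striatal markers summed to 721 to 1163 CPM in control and 1223 to 1473 CPM in CUS mice. Of these the phosphodiesterase gene Pde10a rose (0.61, FDR 0.016), while the other 6 all had negative estimates and were not called. Together these 6 had 313 CPM in control replicate 4, 118 to 194 CPM in the other controls and 134 to 144 CPM in CUS mice. Of the glial markers, 3 of 6 astrocyte markers (Gja1, Aqp4 and Slc4a4) and 2 of 4 markers of newly formed oligodendrocytes (Bcas1 and Tcf7l2) were called lower. None of the 6 oligodendrocyte and 4 OPC markers was called, but all had negative estimates, and the OPC markers summed to 265 to 279 CPM in control and 236 to 253 CPM in CUS mice, without overlap. None of the 6 microglia markers was called, and 3 had negative estimates. Of the 4 claustrum markers 3 had negative estimates, and Nr4a2 was called lower (-1.76, FDR 0.0011). These 4 summed to 178 to 223 CPM in control and 184 to 259 CPM in CUS mice, which overlapped. Of the 4 markers of Ndnf interneurons Ndnf fell and Lamp5 rose. All 5 excitatory markers had positive estimates, with a median of 0.24, and Nrn1 was called (0.34, FDR 0.043). Their sum was 1696 to 1809 CPM in CUS mice, above the 1313 to 1471 CPM of 3 controls and below the 1933 CPM of control replicate 3. The part of these shifts in the Gria1 result was not tested.

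The other pore subunits did not pass the test in the mPFC. Gria2 (chr3:80681450-80802835) measured 974, 915, 865 and 986 CPM in control and 928, 997, 965, 979 and 933 CPM in CUS mice, with a log2 fold change of 0.04 ± 0.06 (SE). Its groups overlapped almost fully. Gria3 (chrX:41400854-41678601) ranged from 822 to 1030 CPM in control and from 889 to 937 CPM in CUS mice, with a log2 fold change of 0.01 ± 0.07. Gria4 (chr9:4417896-4796234) ranged from 665 to 1034 and from 717 to 876 CPM, with -0.09 ± 0.11. In both genes the CUS mice lay within the control range. As a share of all Gria1 to Gria4 reads in a mouse, Gria1 made up 26.1, 31.1, 36.3 and 31.7% in control and 36.7, 37.7, 35.3, 37.7 and 39.2% in CUS mice. These shares overlapped through control replicate 3, and their means were 31.3 ± 4.16% and 37.3 ± 1.43%.

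The TARPs, which tether AMPA receptors to the postsynaptic scaffold and slow their closing, all had positive estimates in the mPFC, and none was called. Cacng2 (chr15:77991748-78120028), the founding member known as stargazin, measured 50.8, 59.9, 95.9 and 43.7 CPM in control and 88.3, 73.5, 81.9, 73.0 and 74.4 CPM in CUS mice. All 5 CUS mice exceeded 3 of the controls, and control replicate 3 exceeded all of them. The log2 fold change of Cacng2 was 0.32 ± 0.18 (FDR 0.31) with that mouse and 0.60 (FDR 0.0039, edgeR) without it, in a fit that called 8.1% of all genes. Cacng3 (chr7:122670492-122769393) ranged from 135 to 224 CPM in control and from 192 to 262 CPM in CUS mice (0.23 ± 0.13, FDR 0.32). Cacng8 (chr7:3390683-3415648) ranged from 35.1 to 50.8 and from 46.0 to 50.2 CPM (0.15 ± 0.09, FDR 0.34). The cornichons, which aid export of the receptor from the endoplasmic reticulum and prolong its currents, had log2 fold changes of -0.00 ± 0.15 for Cnih2 (chr19:5092871-5098418) and 0.02 ± 0.12 for Cnih3 (chr1:181352628-181460641), with groups that overlapped. Cnih2 rested on 3446 reads in all, against 362189 for Gria1.

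In the neocortical nuclei no member was called over all nuclei. Of the 9 members 7 reached the level needed for a test, with Cacng8 and Cnih2 below it, and 0 of the 7 passed an FDR of 0.2, beside 0.0199% of 5018 genes. The likelihood ratio test of edgeR and DESeq2 also called 0 members, and 1 member, Cacng2, had an unadjusted p under 0.05 in the quasi-likelihood test, beside 8.01% of all genes. Gria1 measured 1015, 1010, 979 and 1118 CPM in control and 958, 1352, 1028 and 877 CPM in CUS mice. Its groups overlapped, with CUS replicate 2 the highest and CUS replicate 4 the lowest. The mix of classes differed between mice too: striatal-like nuclei, a class rich in Gria1, made up 7.36 to 9.95% of nuclei in control mice and 5.06, 8.70, 4.21 and 2.49% in CUS mice. A fit without striatal-like nuclei called 1 of 5031 genes and no member. The part of the mix of classes in the values over all nuclei was not tested otherwise. The log2 fold change of Gria1 was 0.03 ± 0.13, and -0.10 without CUS replicate 2. The bulk and single-nucleus values come from other mice, of another age and another dissection, and the difference between them was not tested.

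Cacng2 had the largest estimate over all nuclei, at 94.1, 78.4, 86.9 and 81.7 CPM in control and 114, 94.0, 98.1 and 106 CPM in CUS mice. The groups overlapped only through control replicate 1 and CUS replicate 2. The log2 fold change of Cacng2 was 0.28 ± 0.10 (unadjusted p = 0.013, FDR 0.60, edgeR), and 0.33 with an FDR of 0.104 without CUS replicate 2, which passed the threshold in a fit that called 16.2% of all genes. It was 0.28 ± 0.10 in excitatory nuclei and 0.12 ± 0.13 in inhibitory nuclei. Among the 23 classes in which it was tested, Cacng2 had a positive estimate in 20, with a median log2 fold change of 0.29. These classes come from the same mice and are parts of the sum over all nuclei, so they are not independent of it or of each other.

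**Figure D2:**
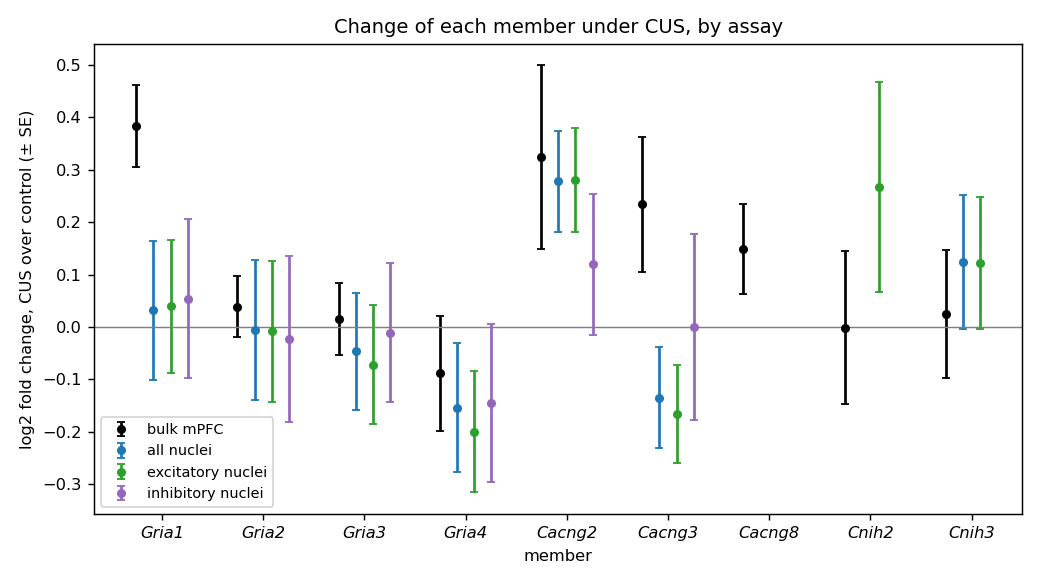
Log2 fold change of CUS over control for each member with its standard error, in bulk mPFC (black), all neocortical nuclei (blue), excitatory nuclei (green) and inhibitory nuclei (purple); members below the level needed for a test have no point. Gria1 stands at 0.38 in bulk and between 0.03 and 0.05 in the nuclei, whereas Cacng2 stands between 0.12 and 0.32 in all 4.

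Gria4 and Cacng3 had negative estimates in excitatory nuclei. Gria4, a subunit with fast kinetics, measured 1377, 1523, 1297 and 1481 CPM in control and 1063, 1451, 1189 and 1241 CPM in CUS mice, and CUS replicate 2 alone reached into the middle of the controls. The log2 fold change of Gria4 was -0.20 ± 0.12 (FDR 0.56), and -0.27 with an FDR of 0.171 without CUS replicate 2, past the threshold in a fit that called 708 of 5441 genes (13%), against 2 of 5333 with that mouse. Cacng3 measured 240, 239, 256 and 248 CPM in control and 193, 208, 227 and 246 CPM in CUS mice. Only CUS replicate 4 lay within the control range, and the log2 fold change of Cacng3 was -0.17 ± 0.09 (FDR 0.54). Cnih2 in excitatory nuclei measured 34.9, 31.7, 49.5 and 36.6 CPM in control and 52.2, 26.3, 52.4 and 52.2 CPM in CUS mice. The 3 CUS mice other than replicate 2 exceeded all controls, and the estimate of Cnih2 was 0.27 ± 0.20 (FDR 0.62) with replicate 2 and 0.46 (FDR 0.132, past the threshold in that same fit) without it.

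**Figure D3:**
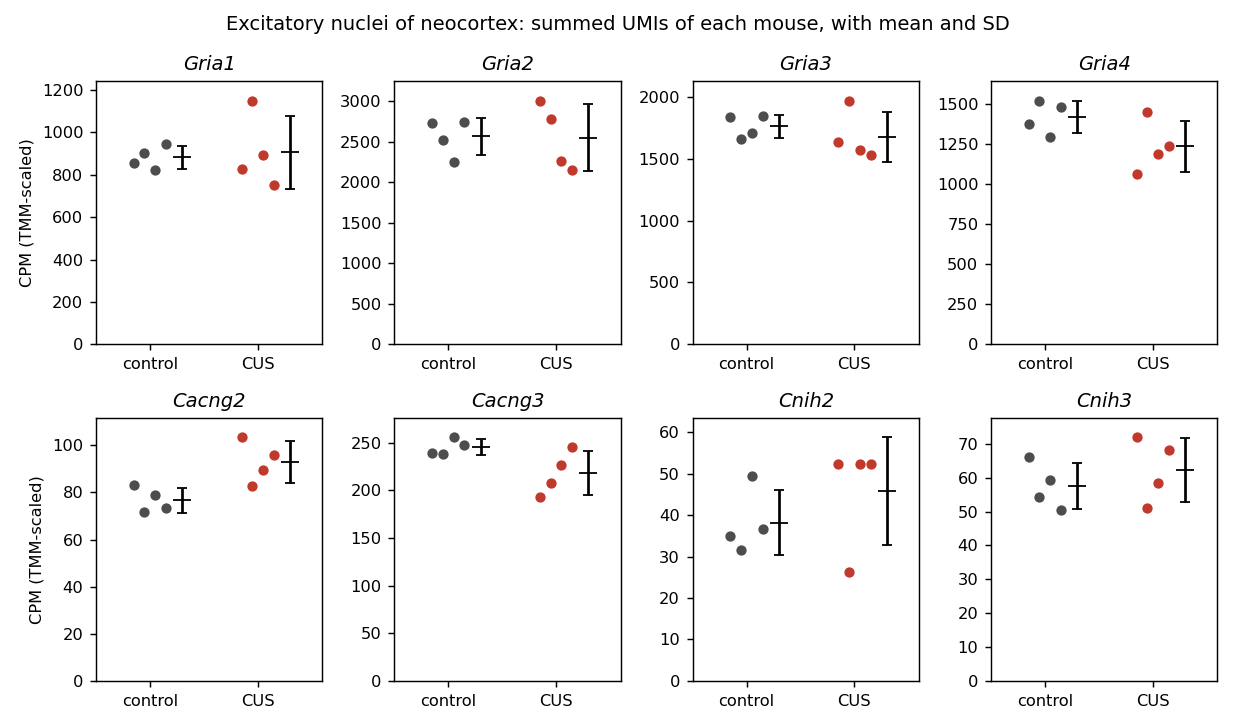
Level of the 8 members tested in excitatory nuclei, in TMM-scaled CPM of the UMIs summed over the excitatory nuclei of each mouse, with 1 point per mouse (control grey, CUS red, n = 4 each) and mean with SD. Groups overlap in all 8 panels, where 5.4% of genes had no overlap, and in Cnih2 CUS replicate 2 lies at 26.3 CPM with the other CUS mice at 52.2 to 52.4 CPM.

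Within the classes and the excitatory and inhibitory totals, 190 pairs of class and member were tested and 0 passed an FDR of 0.2, beside 0.106% of 120228 pairs of class and gene. The pairs of class and gene leave out the excitatory and inhibitory totals. The likelihood ratio test and DESeq2 also called 0. At an unadjusted p under 0.05 the quasi-likelihood test had 14 of the 190 pairs, 1 of them in the excitatory total, and over all pairs of class and gene 6.12%. The lowest FDR, 0.38, was that of Gria1 in claustrum-like nuclei, which measured 674, 594, 764 and 741 CPM in control and 1243, 1199, 969 and 846 CPM in CUS mice. Every CUS mouse exceeded every control there, where 3.47% of genes had no overlap in either direction, with a log2 fold change of 0.61 ± 0.18 (unadjusted p = 0.000795, edgeR), in a class of 380 nuclei. Under the replicate block, which pairs mice by number only, this was the 1 pair called (FDR 0.122). In Ex_L2/3-like nuclei, Cacng3 measured 453, 444, 463 and 460 CPM in control and 347, 366, 402 and 413 CPM in CUS mice. These groups did not overlap, as for 5.6% of genes in the class in either direction, and the estimate was -0.25 ± 0.11 (FDR 0.40). In the Rorb/Kcnh5 cluster, Gria4 measured 3005, 3004, 2889 and 3409 CPM in control and 2432, 2623, 2436 and 2549 CPM in CUS mice, again without overlap, as for 4.23% of genes there (-0.29 ± 0.11, FDR 0.53). In Ex_L4-like nuclei, Cacng2 measured 78.8, 97.5, 106 and 118 CPM in control and 163, 120, 147 and 134 CPM in CUS mice, and all CUS mice were higher, beside 5.09% of genes without overlap there (0.51 ± 0.19, FDR 0.39). Groups did not overlap for 2 of 8 members tested in claustrum-like nuclei, Gria1 among them. The same held for 1 of 7 members each in Ex_L2/3-like nuclei, the Rorb/Kcnh5 cluster and Ex_L4-like nuclei, and for no member in any other class. Of the 26 classes, Gria4 had a negative estimate in 20 and Gria1 a positive one in 18. Cells of these classes come from the same 8 mice, so the classes are not independent of each other. Without CUS replicate 2, 6 pairs passed: Gria4, Cacng2 and Cnih2 in excitatory nuclei, Gria4 in Ex_L2/3-like nuclei, Cacng2 in Ex_L4-like nuclei and Cnih2 in the Galnt14/Slc26a4 cluster. Calls over all genes rose with them, to 13% in excitatory nuclei, 13.7% in Ex_L2/3-like nuclei, 9.26% in Ex_L4-like nuclei and 4.15% in the Galnt14/Slc26a4 cluster.

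Levels of the members also differed between classes. These levels are CPM of all UMIs of the class, averaged over the 8 mice without TMM scaling, and since the classes were made by clustering they are given with no test. The CPM in the comparisons of groups were scaled to the counts of the genes tested, with TMM factors, so the scales differ. The members were left out of the genes used for clustering. Oligodendrocyte-like nuclei, which should hold little of these genes, give a measure of stray RNA. No class gave the lowest level of every member: astrocyte-like nuclei held 109 ± 37.2 CPM of Gria4 against 369 ± 181 in oligodendrocyte-like nuclei, and OPC-like nuclei 12.2 ± 11.9 CPM of Cacng2 against 32.9 ± 22.9. Microglia-like nuclei held 625 ± 221 CPM of Gria1, 1582 ± 304 of Gria2, 938 ± 249 of Gria3 and 124 ± 81.3 of Cacng3, with Slc17a7 at 133 CPM against 33.2 CPM in oligodendrocyte-like nuclei. The levels set beside oligodendrocyte-like nuclei below are therefore not shown to exceed stray RNA in every class. Gria1 was highest in Inh_Sst-like nuclei at 2460 ± 242 CPM (SD, n = 8), above the Cpne7/Nnat cluster at 2033 ± 234 and the Foxp2/Pbx3 cluster at 2025 ± 364, which did not differ beyond their spread. Inh_Pv-like nuclei followed at 1603 ± 243 and striatal-like nuclei at 1375 ± 153 CPM. Ex_L2/3-like nuclei had 605 ± 62.5, Ex_L4-like nuclei 305 ± 47.6 and oligodendrocyte-like nuclei 153 ± 62.0 CPM of Gria1. With each nucleus thinned to 1000 UMIs, 79.5% of Inh_Sst-like nuclei had a UMI of Gria1 against 12.7% of oligodendrocyte-like nuclei. Without thinning these shares were 90.1% and 15.7%, at median depths of 1956 and 1173 UMIs. Thinning left out 915 nuclei of control and 1498 of CUS mice with fewer UMIs.

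Gria2 had 2810 ± 319 CPM in Ex_L5-like nuclei and 2719 ± 360 in Ex_L6-like nuclei, against 1412 ± 313 in Inh_Ndnf-like nuclei. Astrocyte-like nuclei held 1823 ± 170 and oligodendrocyte-like nuclei 497 ± 162 CPM. Of 25 neighbours in its order of classes, 23 differed by less than the larger of their SDs. Gria3 was highest in Ex_L5-like (2184 ± 204), Ex_L2/3-like (2068 ± 156) and Ex_L6-like nuclei (2030 ± 170 CPM), which did not differ beyond their spread. It fell away in Ex_L4-like nuclei to 268 ± 49.7 CPM, above the 189 ± 49.6 CPM of oligodendrocyte-like nuclei by more than the larger SD. With nuclei thinned 18.1% of the former and 15.3% of the latter had a UMI of Gria3, and without thinning 29.9% and 21.0%. Inh_Vip-like nuclei were likewise low in Gria3 at 305 ± 99.6 CPM. Gria4 was highest in claustrum-like nuclei at 3044 ± 543 CPM, then in the Rorb/Kcnh5 cluster at 2473 ± 275 and Inh_Pv-like nuclei at 2228 ± 259, and stood at 1742 ± 230 in Ex_L4-like and 373 ± 72.5 in Ex_L5-like nuclei. The last lay within the spread of oligodendrocyte-like nuclei, at 369 ± 181 CPM, and above astrocyte-like nuclei, at 109 ± 37.2 CPM.

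**Figure D4:**
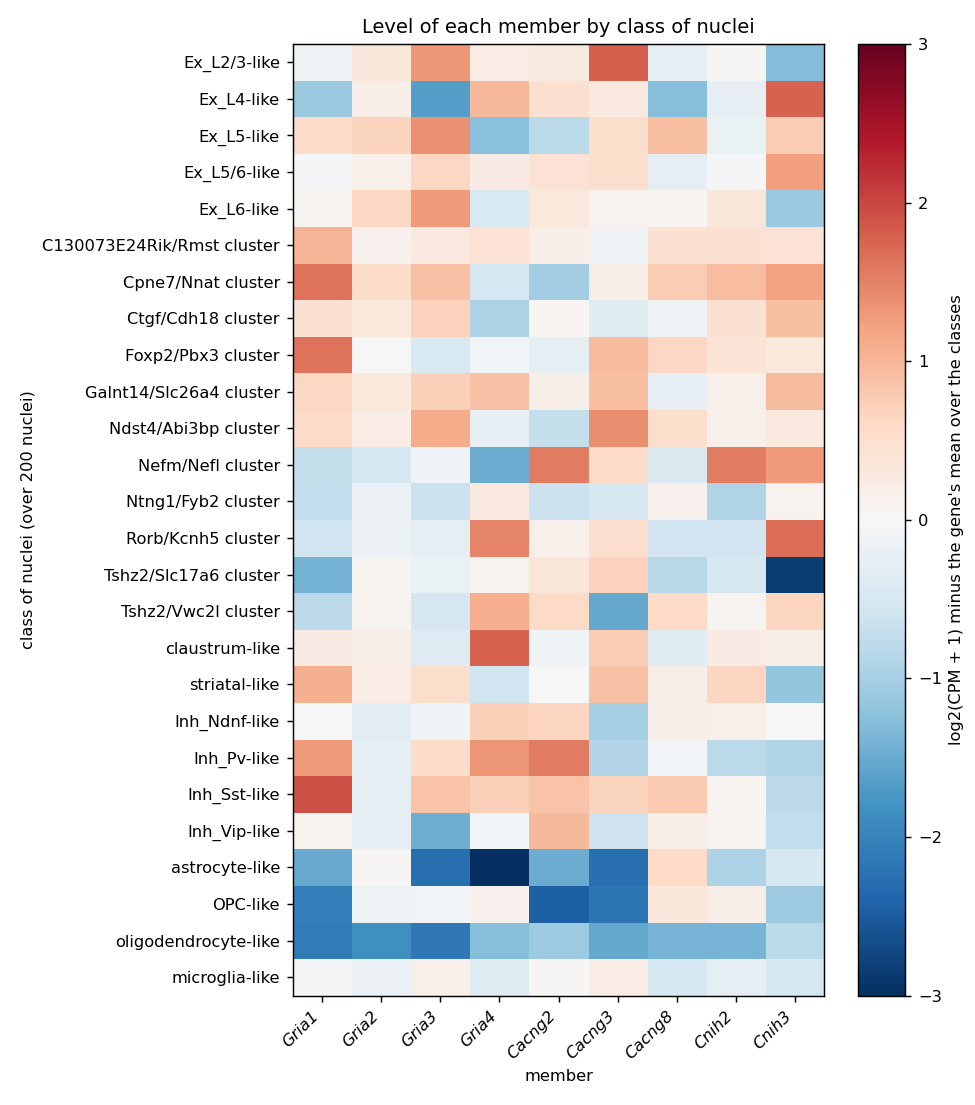
Level of each member (columns) in each class of over 200 nuclei (rows), as log2(CPM + 1) averaged over the 8 mice minus the gene's mean over the classes; red is above and blue below that mean. Gria1 and Cacng2 are red in the Inh_Pv-like row, Cnih3 is red in the Ex_L4-like row and blue in the Ex_L2/3-like row, and the oligodendrocyte-like row is blue for every member.

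The mix of pore subunits followed from these levels. As a share of Gria1 to Gria4 UMIs, Gria2 made up 40.2, 38.2, 37.1 and 39.2% in the excitatory nuclei of the control mice and 46.0, 37.8, 38.2 and 38.0% in those of the CUS mice. CUS replicate 1 stood above the rest, and the mean over mice was 38.4 to 39.7% with each mouse left out in turn. In inhibitory nuclei Gria2 made up 27.0, 23.2, 22.5 and 27.6% in control and 30.8, 23.5, 22.2 and 25.2% in CUS mice. The share of Gria2 was thus 39.3 ± 2.86% in excitatory and 25.2 ± 3.01% in inhibitory nuclei (SD, n = 8), lower in the inhibitory nuclei of every mouse. Inhibitory classes were not alike in it: Inh_Sst-like nuclei had 21.6 ± 2.49% and Inh_Pv-like nuclei 22.6 ± 3.49%, whereas Inh_Ndnf-like nuclei had 32.7 ± 4.69% and Inh_Vip-like nuclei 44.6 ± 3.37%. The C130073E24Rik/Rmst cluster, outside the inhibitory total, had 35.3 ± 2.70%. Excitatory classes were not alike either. The Rorb/Kcnh5 cluster had 30.4 ± 2.82% and claustrum-like nuclei 31.5 ± 3.36%, within the spread of Inh_Ndnf-like and below Inh_Vip-like nuclei. Ex_L4-like nuclei had 46.9 ± 4.22% and the Tshz2/Slc17a6 cluster 49.3 ± 3.56%. The totals therefore do not describe every class. Astrocyte-like nuclei had the highest share, 78.1 ± 2.75%. These are shares of UMIs, uncorrected for gene length, and are compared between classes only.

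**Figure D5:**
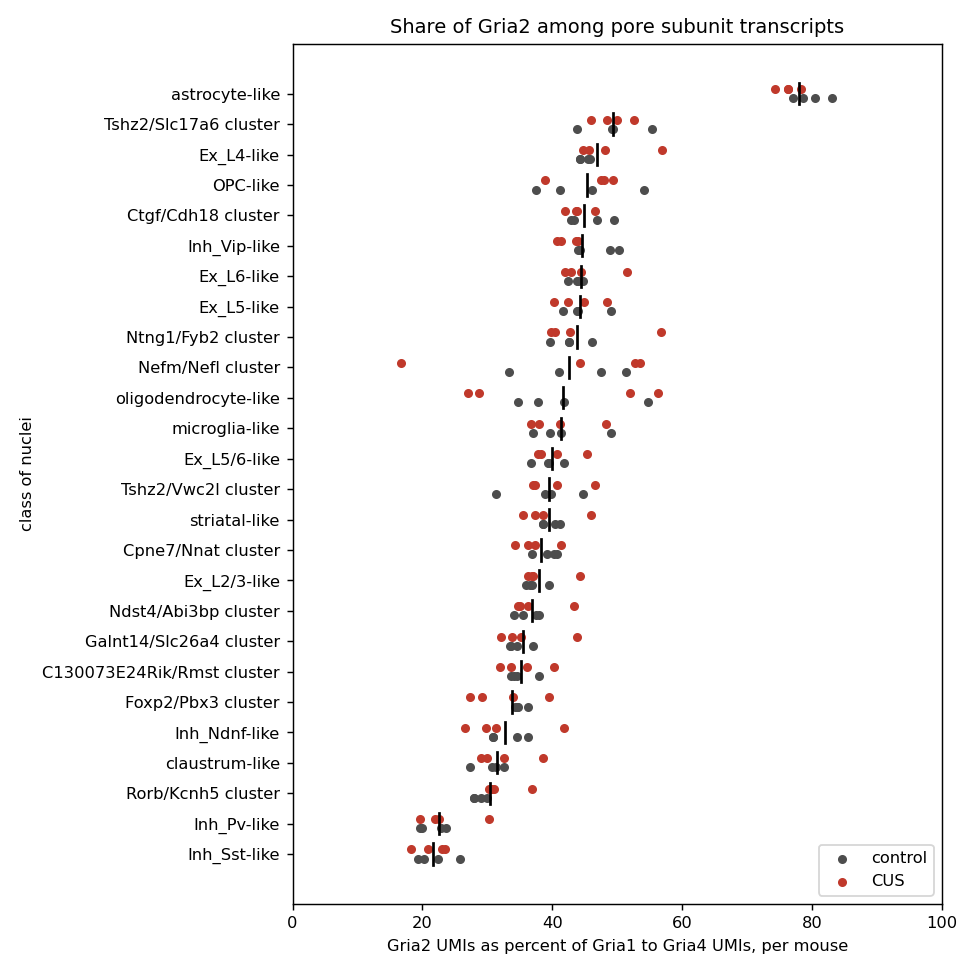
Share of Gria2 among Gria1 to Gria4 UMIs in each class of over 200 nuclei, in percent, with 1 point per mouse (control grey, CUS red, n = 4 each) and a bar at the mean of the 8 mice. Inh_Sst-like and Inh_Pv-like nuclei lie lowest, with means of 21.6 and 22.6%, and astrocyte-like nuclei highest with 78.1%.

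Compared within each mouse, inhibitory nuclei held more Gria1 than excitatory nuclei by 1.01 ± 0.07 on the log2 scale, more Gria4 by 0.56 ± 0.09 and more Cacng2 by 1.13 ± 0.14, each in 8 of 8 mice. They held less Gria2 (-0.60 ± 0.10), Gria3 (-0.44 ± 0.10), Cacng3 (-1.19 ± 0.27), Cnih2 (-0.36 ± 0.33) and Cnih3 (-1.33 ± 0.40), also in 8 of 8 mice. The cornichons rested on few counts in inhibitory nuclei, 174 UMIs of Cnih2 and 135 of Cnih3. The difference in Cnih2 ranged from -0.87 to -0.011 over the mice. Cnih3 had 21.2 ± 8.00 CPM in inhibitory nuclei, within the spread of oligodendrocyte-like nuclei at 19.0 ± 26.2. Cacng8 was higher in inhibitory nuclei in 6 of 8 mice, by 0.21 ± 0.44, which is less than its spread.

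Among the TARPs, the classes did not all follow this difference between inhibitory and excitatory nuclei. Cacng2 had 207 ± 18.4 CPM in Inh_Pv-like nuclei, against 139 ± 62.1 in Inh_Vip-like, 85.3 ± 16.4 in Ex_L2/3-like and 39.9 ± 8.46 in Ex_L5-like nuclei. The Nefm/Nefl cluster matched Inh_Pv-like nuclei at 209 ± 116 CPM, on 41 UMIs. Cacng3 had 368 ± 41.1 CPM in Ex_L2/3-like nuclei and 278 ± 30.9 in the Ndst4/Abi3bp cluster, and 57.5 ± 14.0 CPM in Inh_Pv-like nuclei, where oligodendrocyte-like nuclei had 35.7 ± 25.2. Of the UMIs of Cacng2, Cacng3 and Cacng8, Cacng2 took 71.9% in Inh_Pv-like and 24.5% in excitatory nuclei, while Cacng3 took 66.8% in excitatory nuclei. Inh_Sst-like nuclei went against that, with 168 ± 34.6 CPM of Cacng3 and shares of 49.3% for Cacng3 and 37.9% for Cacng2. So did the excitatory Tshz2/Vwc2l cluster, with 59.1% for Cacng2 and 20.2% for Cacng3. Cacng8, prominent in the hippocampus, had no more than 48.1 ± 14.9 CPM in any class, on 1739 UMIs over all nuclei. None of its 25 neighbours in the order of classes differed beyond the larger SD.

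Of the cornichons, Cnih3 differed between the excitatory layers. It was highest in Ex_L4-like nuclei at 118 ± 26.3 CPM and the Rorb/Kcnh5 cluster at 111 ± 18.2, and had 58.7 ± 17.9 in Ex_L5-like nuclei. In Ex_L6-like nuclei it had 15.1 ± 4.95 and in Ex_L2/3-like nuclei 13.3 ± 6.69 CPM, no higher than the 19.0 ± 26.2 of oligodendrocyte-like nuclei. Cnih2 had 66.4 ± 15 CPM in the Cpne7/Nnat cluster, 54.5 ± 18.8 in striatal-like and 19.3 ± 14.5 in Inh_Pv-like nuclei, and 102 ± 92.6 in the Nefm/Nefl cluster on 18 UMIs. None of its 25 neighbours in the order of classes differed beyond the larger SD. Classes further apart did differ: mice ranged from 48.0 to 90.8 CPM in the Cpne7/Nnat cluster and from 11.7 to 29.7 CPM in the Rorb/Kcnh5 cluster. Cnih3 therefore took 80.7% of the UMIs of Cnih2 and Cnih3 in Ex_L4-like nuclei but 26.9% in Ex_L2/3-like and 25.5% in Ex_L6-like nuclei.

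Over the 26 classes, the genes with the pattern most like each member were found by Pearson's r of log2(CPM + 1) among 8104 genes, as a description. For Gria1 these were C78859 (0.84), Kmt2a (0.80) and Trub1 (0.80). For Gria2 they were Rab36 (0.85), Adgrb2 (0.84) and Hivep2 (0.83), for Gria3 Med24 (0.82), Rbfox1 (0.81) and Pip5k1a (0.79), and for Gria4 Ypel4 (0.80), Dcx (0.78) and Usp13 (0.75). For Cacng2 they were Bcas2 (0.91), Chd3os (0.87) and Rab6b (0.87), and for Cacng3 Camk2a (0.88), Lin7b (0.85) and 1700016P03Rik (0.85). For Cacng8 the values were lower, with Gm10125 (0.73), Pde9a (0.70) and Rragb (0.67). For Cnih2 they were Dlg3 (0.86), Nat14 (0.85) and Morf4l2 (0.84), and for Cnih3 Ift122 (0.69), Hs3st2 (0.66) and Scube1 (0.65). All points share the same 8 libraries. Between members, r was highest for Gria1 and Gria3 (0.61) and lowest for Cacng2 and Cacng8 (-0.22).

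Other proteins that bind, assemble or cluster AMPA receptors were followed as a list of 20 genes. In the mPFC 0 of the 20 were called, 7 had an unadjusted p under 0.05 by the quasi-likelihood test of edgeR, beside 21.5% of all genes, and 16 had a positive estimate. The median log2 fold change of the list was 0.15, against 0.01 over all genes and 0.24 for the 5 excitatory markers. The list was chosen with earlier results of these data known. The smallest p belonged to the TARP-related subunit Gsg1l (0.51 ± 0.15, FDR 0.075), the CKAMP-family subunit Shisa9 (0.33 ± 0.11, FDR 0.093) and the pentraxin Nptx2 (0.21 ± 0.07, FDR 0.11). Over all nuclei 0 of the 13 genes tested were called and 5 had an unadjusted p under 0.05, beside 8.01% of all genes. The smallest p there belonged to Nptx1 (0.50 ± 0.13), the CKAMP-family subunit Shisa7 (0.26 ± 0.10) and Cpt1c, a brain carnitine palmitoyltransferase of the endoplasmic reticulum (0.33 ± 0.10), each with an FDR of 0.60.

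Of that list, 2 genes were called higher in a class of nuclei by the quasi-likelihood test with all mice. Nptx1, a secreted pentraxin that gathers AMPA receptors at synapses, measured 55.9, 72.5, 60.2 and 62.5 CPM in Ex_L2/3-like nuclei of control mice and 108, 92.4, 108 and 119 CPM in those of CUS mice. The groups did not overlap, and the log2 fold change was 0.76 ± 0.15 (FDR 0.042), in a class in which 0.858% of 5361 genes were called. Prrt1, an AMPA receptor binding protein also known as SynDIG4, measured 22.4, 16.3, 44.4 and 18.9 CPM in control and 57.7, 49.8, 69.4 and 86.8 CPM in CUS mice in the Galnt14/Slc26a4 cluster. It was higher in every CUS mouse, as for 4.46% of genes there in either direction, with a log2 fold change of 1.26 ± 0.30 (FDR 0.080), where 0.287% of 5229 genes were called. DESeq2 called 0 of these 5229 genes. Without CUS replicate 4 no gene was called higher there, so both fits lost the call of Prrt1. In bulk mPFC Nptx1 had 0.22 ± 0.10 (FDR 0.20) and Prrt1 0.15 ± 0.13 (FDR 0.54).

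A second list held 12 genes for trafficking, anchoring and editing of the receptors, and 0 were called in the mPFC, over all nuclei or in any class. At an unadjusted p under 0.05 in edgeR's quasi-likelihood test there were 2 of 12 in the mPFC, 0 of 10 over all nuclei and 2 of 11 in excitatory nuclei. The shares of all genes were 21.5%, 8.01% and 9.47%. The smallest p in the mPFC belonged to Rab11a, a GTPase of recycling endosomes (-0.13 ± 0.05, FDR 0.15), and to the scaffolds Grip2 (0.22 ± 0.09, FDR 0.20) and Grip1 (0.15 ± 0.08, FDR 0.33). Adarb1, the enzyme that edits the Q/R site shown above, was not called in the mPFC (-0.04 ± 0.07, FDR 0.77). In excitatory nuclei Adarb1 measured 134, 154, 146 and 147 CPM in control and 123, 129, 119 and 128 CPM in CUS mice. The CUS mice all lay below the controls, where 5.4% of all genes had no overlap, with a log2 fold change of -0.22 ± 0.09 (FDR 0.51). Reads of Pick1 were split over a pair of overlapping gene entries with near-equal counts in the bulk files, and its value is uncertain.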

How the data were processed

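The authors deposited whole-number counts without normalization: reads per gene for each bulk library, and UMIs per gene and barcode for 5000 barcodes of each sNucDrop-seq mouse, before filters on nuclei. Per their methods, bulk libraries were stranded, depleted of ribosomal RNA, mapped uniquely to mm10 with STAR and counted by in-house programs; nuclei were counted over exons and introns on the strand of the gene (Gencode annotation), with similar UMIs merged. The submitters' processing notes also name edgeR and Seurat.

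Bulk counts were filtered with filterByExpr (18394 genes kept) and tested with edgeR 4.0.16 (TMM factors, quasi-likelihood test, Benjamini-Hochberg FDR of 0.05 over all genes tested). A barcode counted as a nucleus if it had from 600 to 5000 detected genes, mitochondrial UMIs below 5% and a Scrublet score, computed in scanpy 1.11.5, not above 0.2. This last step took out 15.2% as doublets. Nuclei were clustered in Seurat 5.3.0 (2000 variable genes, 50 components, resolution 1), with the members and both lists kept out of the variable genes. UMIs were summed per mouse and class and tested alike at an FDR of 0.2, on genes whose UMIs exceeded 10% of the nuclei, with no batch term. Alternatives were the likelihood ratio test, DESeq2 1.42.0, other scaling, no filter, the replicate number as a block, fewer mice, and other filters and resolutions. 

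Tested on simulated data, the bulk test recovered 79% of the 200 genes given a log2 change of 1, and the tests over all nuclei and in Ex_L2/3-like nuclei 100% each, with 20% and 20.6% of their calls false. A log2 change of 1 is larger than the estimate of any member in bulk or over all nuclei. Recovery of smaller changes was not measured, so a member that was not called is not shown to be unchanged. Bulk depth was 26188825 to 30525015 reads per mouse. In the nuclei Cacng8 rested on 1739 UMIs in all, which limits its precision in a class. All 9 members are named; of the lists, genes past the FDR are named, otherwise up to 3 with the smallest p, and for each member the 3 genes most alike. Nptx1, Prrt1, Adarb1 and Pick1 were also given in a comparison where they were not called, chosen after their values were seen. The members and lists were chosen with earlier results of these data known. Sequences are those of GENCODE M21 transcripts.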

Additional observations from a re-analysis of the deposited data

Results flagged for a closer look

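In 64 groups of 4 or 5 mice examined for a sample far from the others, 3 had one, and chance alone gives about 1 in 20. For Gria3 over all nuclei, CUS replicate 2 had 1829 CPM and the other CUS mice 1463 to 1484 CPM, so the gap to the nearest mouse was 0.940 of the range. For Cnih2 in excitatory nuclei, CUS replicate 2 had 26.3 CPM against 52.2 to 52.4 CPM, a gap of 0.994 of the range. For the share of Gria2 in excitatory nuclei, CUS replicate 1 had 46.0% and the other CUS mice 37.8 to 38.2%, a gap of 0.952 of the range.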

How the results depend on the processing

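The count of 606 genes called in bulk was 1330 with the likelihood ratio test, 1402 with DESeq2 and 238 with the replicate block, and ranged from 133 (without control replicate 2) to 1508 (without control replicate 3) when mice were left out in turn. The 1 bulk member called became 0 with the replicate block and ranged from 0 to 2 over the left-out mice. Without control replicate 3 these were Gria1 and Cacng2. The 0 members called over all nuclei became 1, and the 0 pairs of class and member became 6, without CUS replicate 2 and stayed at 0 without any other mouse. Without CUS replicate 2 the genes called also rose, from 2 to 708 in excitatory and from 46 to 750 in Ex_L2/3-like nuclei. The replicate block gave 1 such pair, and the replicate numbers share no animal or stated batch: deviations of same-numbered mice correlated at 0.025 to 0.15 in bulk and -0.45 to 0.40 in nuclei, so the block pairs mice by number only. Some small bulk estimates changed sign. Gria3 was -0.012 with no TMM factors, and over the left-out mice the ranges were -0.0036 to 0.075 for Gria2, -0.029 to 0.079 for Gria3, -0.17 to 0.029 for Gria4, -0.11 to 0.15 for Cnih2 and -0.099 to 0.15 for Cnih3. Over all nuclei Gria2 was 0.0046 with DESeq2 and 0.018 with no TMM factors, and ranged from -0.087 to 0.063 over the left-out mice, and Gria1 from -0.096 to 0.11. The cause of these shifts was not tested. The shares of Gria2 in excitatory and inhibitory nuclei moved by less than 1 SD under each of 4 alternatives in processing. All 36 alternative values of the inhibitory over excitatory levels did likewise. Leaving out each mouse in turn, which was chosen after seeing the data, gave mean shares of 38.4 to 39.7% in excitatory nuclei. In inhibitory nuclei it gave 24.5 to 25.7%. Leaving out 1 mouse cannot move a mean over these mice by 1 SD, whatever the values, so the limit of 1 SD decides nothing there. Low counts limit Cacng8, Cnih2 and Cnih3 in most classes.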
